A study of Homo sapiens with 15 samples.

Results

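Sites of 786-O cells where a HIF2α peak and a BMAL1 peak lie over the same DNA are described here by their genes, their place in the genome, their sequence, and the peaks that were called at them after depletion of BMAL1. 786-O is an established line of clear cell renal cell carcinoma that lacks functional VHL, so that HIF2α is stable in normal oxygen. The cells carried a lentiviral pLKO.1 construct with an shRNA of scrambled sequence (shControl) or one against BMAL1 (shBMAL1), and infected cells were selected with puromycin. Both groups were otherwise the same parental line, labelled wild type. CUT&RUN, in which an antibody directs a nuclease to cut out and release the DNA beneath a bound protein, was performed on 100000 cells per reaction with an antibody to BMAL1, to HIF2α, or an IgG control. The study comprised 15 libraries in 6 groups: 3 of BMAL1 and 3 of HIF2α from shControl cells, 2 of BMAL1 and 3 of HIF2α from shBMAL1 cells, and 2 of IgG from each.

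The authors deposited 1 peak list per antibody and shRNA, pooled over its libraries. As used here the lists held 1812 BMAL1 and 1204 HIF2α peaks for shControl cells and 768 BMAL1 and 1089 HIF2α peaks for shBMAL1 cells, each slightly fewer than the number in the list's own name. IgG libraries had no list and were not analysed here. A site was counted as co-occupied when a HIF2α peak of shControl cells overlapped a BMAL1 peak of shControl cells by at least 1 bp. Of the 1204 HIF2α peaks, 336 did so. The 24 of these with a summit inside EPAS1 or ARNT, the genes of HIF2α itself and of its usual partner, were left out, and 312 sites remained, with 312 BMAL1 peaks at them. The 867 other HIF2α peaks and the 1477 other BMAL1 peaks outside these 2 genes are called HIF2α-only and BMAL1-only peaks. Because the sites were chosen by the shControl peaks, their occupancy in shControl cells is a description. Peaks came from separate libraries, so that both proteins on 1 molecule of DNA and each on different molecules cannot be told apart.

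BMAL1 is the bHLH-PAS protein of the circadian clock that pairs with CLOCK and binds E-boxes, with PER and CRY genes among its targets. HIF2α, encoded by EPAS1, is a bHLH-PAS protein of the response to low oxygen that pairs with ARNT and binds hypoxia response elements (HREs). In clear cell renal cell carcinoma the loss of VHL leaves HIF2α undegraded, and HIF2α drives growth in many of these tumours. The E-box and the HRE core share letters, since an E-box contains ACGTG on each strand.

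Some of the sites at clock, hypoxia, MYC network and metabolic genes are shown first, because the letters near their summits let both kinds of element be seen. Each line is a run of 61 bases of hg19 on the plus strand within 100 bp of the HIF2α summit, with E-boxes (CACGTG) or HRE cores (ACGTG or GCGTG, read on either strand, so that CACGT and CACGC are the minus-strand forms) in capitals. The first 3 hold an E-box. The others hold an HRE core and no CACGTG in the 200 bp around the HIF2α summit. Other forms of the E-box were not searched, and the BMAL1 summit can lie outside this window.
LDHA promoter, chr11:18415898-18415958: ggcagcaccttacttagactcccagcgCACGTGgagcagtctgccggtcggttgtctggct
HK2 intron, chr2:75095402-75095462: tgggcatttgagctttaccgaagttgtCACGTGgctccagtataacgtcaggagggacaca
MXD4 promoter, chr4:2264042-2264102: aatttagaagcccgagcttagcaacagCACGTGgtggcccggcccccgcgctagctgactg
SLC2A1 intron, chr1:43406841-43406901: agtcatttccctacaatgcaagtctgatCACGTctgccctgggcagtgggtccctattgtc
CA12 intron, chr15:63654652-63654712: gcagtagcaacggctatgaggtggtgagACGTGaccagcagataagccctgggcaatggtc
PDK1 promoter, chr2:173420782-173420842: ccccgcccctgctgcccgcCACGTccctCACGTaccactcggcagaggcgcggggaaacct
PFKFB4 promoter, chr3:48594688-48594748: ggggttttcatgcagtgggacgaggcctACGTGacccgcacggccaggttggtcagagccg
PER1 promoter, chr17:8059693-8059753: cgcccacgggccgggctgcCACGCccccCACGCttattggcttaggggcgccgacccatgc
PER2 promoter, chr2:239197416-239197476: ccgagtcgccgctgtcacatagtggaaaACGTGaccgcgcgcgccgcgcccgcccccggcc
BHLHE40 promoter, chr3:5020945-5021005: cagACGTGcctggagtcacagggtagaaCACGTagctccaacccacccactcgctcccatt
INSIG1 upstream site, chr7:154997402-154997462: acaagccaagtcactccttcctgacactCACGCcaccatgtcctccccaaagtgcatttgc

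In shBMAL1 cells the HIF2α peak was called again at 181 of the 312 sites (58.0%, 95% Wilson interval 52.5% to 63.4%), against 57.7% of all 1204 HIF2α peaks. The BMAL1 peak was called again at 76 sites (24.4%, 19.9% to 29.4%), against 38.7% of all 1812 BMAL1 peaks. Retained peaks are those with any overlap of a shBMAL1 peak from the same antibody, and the rest are called lost. Across the sites, 59 kept both peaks (18.9%), 122 kept the HIF2α peak alone (39.1%), 17 kept the BMAL1 peak alone (5.45%) and 114 kept neither (36.5%). The HIF2α share was thus close to its background and the BMAL1 share below its own. Each interval covers counting error over peaks only. With 1 pooled list per group there is no error between libraries and no test was made, and a lost peak may still hold signal under the calling threshold. The lists carry no read counts, so the depth behind each peak is unknown, and no value here measures how far BMAL1 was depleted. The BMAL1 list of shBMAL1 cells pools 2 libraries and the other lists 3 each. The part of this difference in the lost BMAL1 peaks was not tested.

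**Figure D1:**
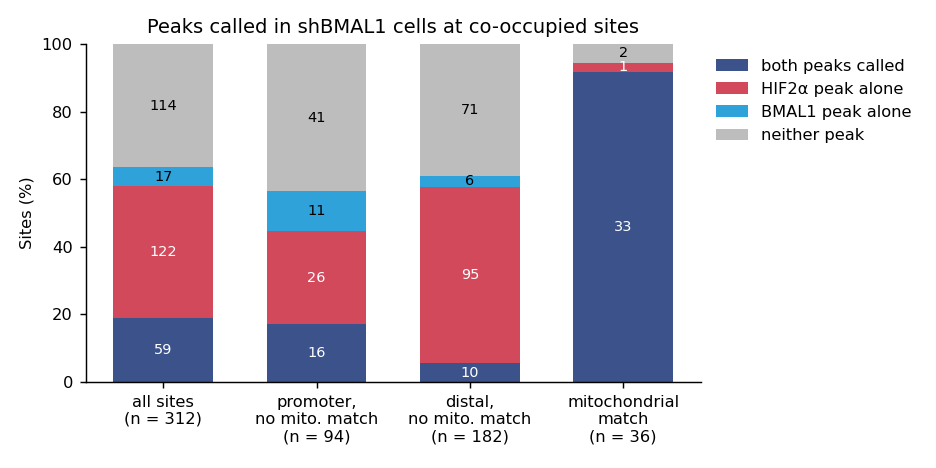
Stacked bars give the share of co-occupied sites (%, y axis) by the peaks called at them in shBMAL1 cells, with the number of sites in each segment, for all 312 sites and for sites without a mitochondrial match in promoters (94) and elsewhere (182) and sites with such a match (36). The segment with both peaks holds 33 of the 36 sites with a match, and the HIF2α peak alone holds 95 of the 182 distal sites.

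Most sites that kept both peaks matched the mitochondrial genome. Nuclear copies of mitochondrial DNA are segments of the mitochondrial genome that were inserted into chromosomes in evolution, and reads from mitochondria can align to them. When each HIF2α peak was compared by blastn with the mitochondrial sequence of the GRCh37 assembly, 36 of the 312 sites (11.5%, 8.45% to 15.6%) matched. Of the 59 sites that kept both peaks 33 matched (55.9%, 43.3% to 67.8%), and of the 253 others 3 did (1.19%). Among HIF2α-only peaks 16 of 867 matched (1.85%) and among BMAL1-only peaks 0 of 1477, so that the 36 BMAL1 peaks of shControl cells with a match all lay at co-occupied sites. Matches were local to the peaks: of the intervals 2000 bp to each side of a site, 19 of 624 matched, all beside a site with a match, and 0 of 552 beside the other sites.

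The 36 sites with a match were narrow and strong by p. Their median identity to the mitochondrial sequence was 91.3% (75.3% to 100%) over a median of 137 aligned bases (37 to 663). The median HIF2α peak width was 163.5 bp, and 33 of 36 were narrower than 200 bp. By p they had a median rank of 214.5 among the 1204 HIF2α peaks, and 14 of the 33 co-occupied sites among the 100 strongest HIF2α peaks were of this kind. Their fold enrichment, the ratio of a peak over the local background as deposited, was lower, with a median of 4.21 for HIF2α and 3.95 for BMAL1, against 6.16 and 6.43 at the other 276 sites. Of the 36 sites, 29 had no start site of a protein-coding gene within 10000 bp. Whether the reads at these sites came from nuclear chromatin or from mitochondria was not tested.

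A pair of the strongest of these sites show what such a peak is. The whole HIF2α peak is printed from hg19, plus strand, with the stretch that aligns to the mitochondrial genome in capitals. Sites outside protein-coding genes are called intergenic here and below.
Intergenic site nearest to FSTL5, chr4:163342603-163342765: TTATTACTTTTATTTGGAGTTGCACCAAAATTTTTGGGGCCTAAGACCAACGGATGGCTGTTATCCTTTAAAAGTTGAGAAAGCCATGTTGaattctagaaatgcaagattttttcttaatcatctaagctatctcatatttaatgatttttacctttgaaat
Intergenic site nearest to ACTR3C, chr7:149829107-149829264: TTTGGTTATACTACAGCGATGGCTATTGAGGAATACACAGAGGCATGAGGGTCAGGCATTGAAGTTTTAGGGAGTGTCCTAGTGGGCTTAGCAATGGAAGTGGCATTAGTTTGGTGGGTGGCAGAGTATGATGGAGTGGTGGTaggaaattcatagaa
The FSTL5 site was 97.8% identical over 91 aligned bases, and the ACTR3C site 81.8% over 143. Both antibodies gave a peak there in both groups of cells: the HIF2α fold enrichment of the FSTL5 site was 4.62 in shControl and 3.98 in shBMAL1 cells, and its BMAL1 fold enrichment 4.44 and 6.66. At the ACTR3C site the HIF2α values were 8.39 and 2.77, and the BMAL1 values 6.75 and 6.68. No fold here is scaled between lists, since each is a value of a peak in its own list. Over all peaks the median BMAL1 fold was 7.13 in the shControl and 10.5 in the shBMAL1 list. For HIF2α these medians were 6.87 and 7.40.

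Without the sites that match the mitochondrial genome, 276 sites remained, and few of them kept a BMAL1 peak. The HIF2α peak was retained at 147 (53.3%, 47.4% to 59.1%) and the BMAL1 peak at 43 (15.6%, 11.8% to 20.3%). Both peaks were kept at 26 sites (9.42%), HIF2α alone at 121 (43.8%), BMAL1 alone at 17 (6.16%) and neither at 112 (40.6%). The HIF2α-only peaks without a match were retained at 483 of 851 (56.8%, 53.4% to 60.05%), an interval that overlaps that of the co-occupied sites. BMAL1-only peaks were retained at 625 of 1477 (42.3%, 39.8% to 44.9%), above the interval of the co-occupied sites. Leaving out these matches was chosen after the data were seen.

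Peak strength differed between these classes and moved with retention. Without matches, the BMAL1 peaks at the sites had a median rank of 1217.5 of 1812 by p, and BMAL1-only peaks one of 865. For HIF2α the median rank was 699 of 1204 at the sites and 613 at HIF2α-only peaks, and with matches 611.5 and 615. When each shControl list was divided into quintiles by p, among the strongest quintile of BMAL1 peaks without a match, 14 of 17 at co-occupied sites were retained (82.4%, 59.0% to 93.8%), against 307 of 317 elsewhere (96.8%, 94.3% to 98.3%). In the second the shares were 40.9% (27.7% to 55.6%) and 61.3% (55.7% to 66.6%), in the third 7.02% (2.76% to 16.7%) and 24.7% (20.1% to 29.8%), and in the fourth 1.47% (0.260% to 7.87%) and 14.5% (10.9% to 19.1%). In each of these 4 quintiles the BMAL1 share was lower at co-occupied sites, and in the weakest it was 6.67% against 6.32%. HIF2α peaks at co-occupied sites ran from 90.7% retained in the strongest quintile to 26.5% in the weakest, beside 96.6% and 28.3% for those elsewhere.

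**Figure D2:**
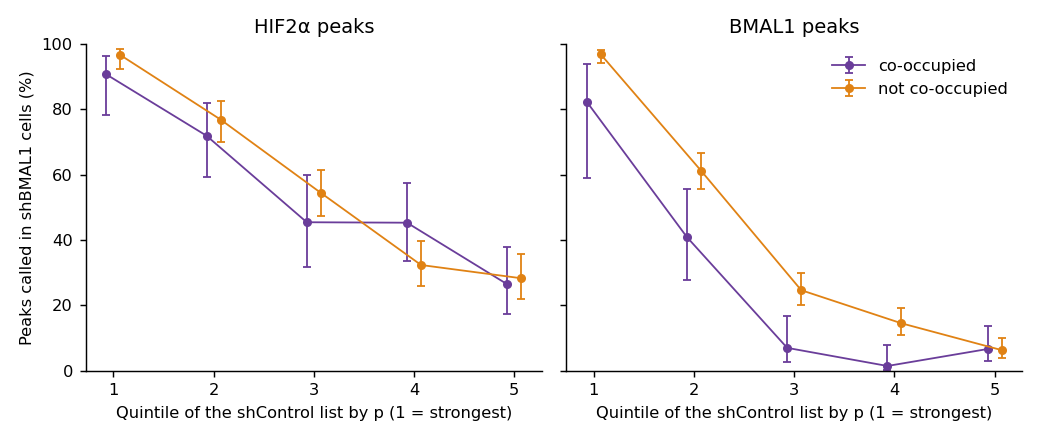
The share of shControl peaks called again in shBMAL1 cells (%, y axis) is plotted by quintile of each shControl list by p (x axis, 1 is strongest), for HIF2α peaks on the left and BMAL1 peaks on the right, with 95% Wilson intervals over peaks and mitochondrial matches left out. Co-occupied and other HIF2α peaks have overlapping intervals in each quintile, and co-occupied BMAL1 peaks lie below the others in the first 4 quintiles.

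The limits on peak strength moved the BMAL1 share by more than 1.5 times. With all 4 lists limited to peaks of −log10 p of at least 20, there were 75 sites and the BMAL1 peak was retained at 31 (41.3%). With each list limited to its 768 strongest peaks, there were 61 sites and it was retained at 36 (59.0%). Without the mitochondrial matches these became 7 of 48 sites (14.6%) and 13 of 37 (35.1%). No share over all BMAL1 peaks was computed under these limits, so these shares have no background beside them. Strong BMAL1 peaks were retained more often elsewhere as well, at 96.8% in the first quintile and 61.3% in the second.

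The 4 fates differed in the strength of the peaks at the outset. Among sites without a match, those that kept HIF2α alone had a median HIF2α fold enrichment of 7.48 (n = 121) and those that kept neither 5.71 (n = 112), while their BMAL1 medians were 6.23 and 6.29. At the 17 sites that kept BMAL1 alone the median was 4.74 for HIF2α and 10.5 for BMAL1. At the 26 that kept both it was 5.47 and 8.59. The BMAL1 medians were thus higher where BMAL1 was kept, and the classes overlapped widely: HIF2α folds ran from 1.97 to 19.95 at sites that kept HIF2α alone and from 2.25 to 12.3 at sites that kept neither.

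**Figure D3:**
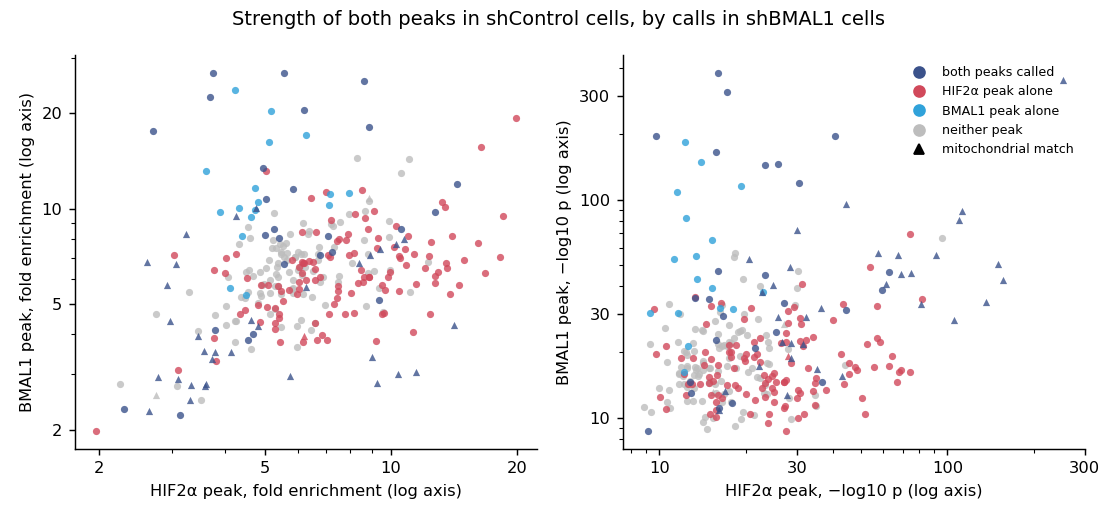
Each point is 1 of the 312 sites, with the strength of its HIF2α peak in shControl cells (x axis) against that of its BMAL1 peak (y axis) as fold enrichment on the left and −log10 p on the right, all on log axes. Colours give the peaks called in shBMAL1 cells, and triangles mark mitochondrial matches, whose median HIF2α fold was 4.21 and whose median HIF2α rank by p was 214.5.

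The peaks with the best joint strength gave examples of each fate, chosen by the worse of their ranks by p in the 2 shControl lists. Of the 10 best sites, 6 were mitochondrial matches, among them the first, on chromosome Y, with a HIF2α rank of 12 and a BMAL1 rank of 37. The other 4 were at TMEM18, PER2 and SNX9 and at an intergenic site whose nearest start was that of ZNF254. At the promoter of TMEM18, which encodes a nuclear membrane protein, both summits lay on the same base, and the HIF2α fold was 8.62 in shControl and 6.87 in shBMAL1 cells, with BMAL1 at 25.4 and 15.4. The SNX9 site, in an intron of a sorting nexin of endocytosis, had the highest HIF2α fold of all sites, 19.95, with BMAL1 at 19.4. In shBMAL1 cells its HIF2α peak was called at 11.9 and its BMAL1 peak was not. At the intergenic site, 204752 bp from the start of ZNF254, a zinc finger gene, the HIF2α fold of 8.80 and the BMAL1 fold of 6.27 were both followed by no peak. That HIF2α peak was 150 bp wide and had the highest −log10 p of the sites without a match (95.6). It held no E-box or HRE core in the 200 bp around its summit, and how reads align there was not tested.

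Further sites of each fate were the following, all without a match. HIF2α alone was kept near NTN5 (16.4 in shControl, 5.59 in shBMAL1), of the netrin family, at the promoter of USP37 (8.20 and 6.81), a deubiquitinase, and in ZFYVE28 (10.5 and 7.23), an endosomal protein. BMAL1 alone was kept in DNM2, a dynamin of vesicle scission, where the BMAL1 fold was 11.2 in shControl and 6.57 in shBMAL1 cells. It was also kept at ELL (17.1 and 13.7), a transcription elongation factor, in CREB5 (10.3 and 6.16), a bZIP factor, in STK40 (11.1 and 7.35), a kinase-like protein, and at CEP250 (9.90 and 9.19), a centrosome protein. Neither peak was called in shBMAL1 cells at EXOSC5, a subunit of the RNA exosome, near TRIM56, a ubiquitin ligase, in AZIN2, an antizyme inhibitor, or in ZNF627, a zinc finger gene, though their BMAL1 folds in shControl cells ran from 8.99 to 14.4. The BMAL1 folds of these sites lie in the range of those that kept BMAL1 alone.

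Clock genes with a co-occupied site were PER1, PER2 and BHLHE40, 3 of the 22 on the list, against 1.58% of all 20149 protein-coding genes. A gene was counted when its protein-coding start site was the nearest one or when the HIF2α summit lay in its body. The clock list was chosen with earlier results of these data known, so that its count is no independent support. All 3 clock genes with any HIF2α peak in shControl cells had a co-occupied site, while 14 of the 22 had a BMAL1 peak, as did 1812 of all genes. HIF2α peaks were retained at all 4 sites (53.3% of all sites without a match) and BMAL1 peaks at 2 (15.6%), those of PER1 and PER2, which encode repressors of the clock. At the PER1 promoter the BMAL1 peak was the highest in fold of all 312 sites (26.9, rank 89 of 1812) and the HIF2α peak among the weakest (3.75, rank 1180 of 1204), with the summits 240 bp apart. In shBMAL1 cells the values were 6.00 for BMAL1 and 4.46 for HIF2α. The PER2 promoter had a BMAL1 fold of 13.4 and a HIF2α fold of 4.95, with summits 142 bp apart, and in shBMAL1 cells 3.91 and 4.64. At both genes the BMAL1 fold was lower in the shBMAL1 list and the HIF2α fold differed less between the lists. As the folds are not scaled between lists, these differences are not measured changes in occupancy.

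BHLHE40, which encodes a bHLH repressor induced by both the clock and hypoxia, had the opposite balance. Its promoter site had a HIF2α fold of 11.3 (rank 94) and a BMAL1 fold of 4.06 (rank 1745), with summits 397 bp apart, and its site 44098 bp downstream of the start had 12.1 and 6.49. The HIF2α peaks were called in shBMAL1 cells at 7.86 and 10.6, and neither BMAL1 peak was. Both sites hold HRE cores, and neither holds an E-box (CACGTG) within the window around the HIF2α summit. The BMAL1 summit of the promoter site, 397 bp away, lies outside that window.

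Hypoxia genes held more of the sites: 10 of 38 on the list, against 319 of all 20149 protein-coding genes (1.58%). In shControl cells HIF2α peaks lay at 29 of the 38 and BMAL1 peaks at 12, and over all 20149 genes they lay at 1074 and 1812. Their 15 co-occupied sites kept 12 HIF2α peaks and 1 BMAL1 peak, where all 276 sites without a match kept 53.3% and 15.6%. The genes were chosen as known HIF targets with earlier results of these data known, so that their HIF2α peaks are no independent support.

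The genes of glucose uptake and glycolysis among them differed in fate. SLC2A1, the glucose transporter GLUT1, had an intronic site, 1985 bp past the nearest annotated start, with a HIF2α fold of 13.9 in shControl and 11.6 in shBMAL1 cells and a BMAL1 fold of 5.37 that was lost. LDHA, which makes lactate from pyruvate, had a pair of promoter sites with HIF2α folds of 12.8 and 4.82 in shControl cells and 17.9 and 8.81 in shBMAL1 cells, and both BMAL1 peaks (5.82 and 4.95) were lost. HK2, a hexokinase, had a pair of intronic sites with HIF2α folds of 10.8 and 9.56. The first, with the E-box, was called in shBMAL1 cells at 5.36, and the second was not, nor was either BMAL1 peak (7.45 and 4.72). PDK1, the kinase that restrains pyruvate dehydrogenase, lost both peaks at its promoter (HIF2α 5.80, BMAL1 5.59). PFKFB4, an enzyme that sets the level of a glycolytic activator, was the only one of the 10 genes with a retained BMAL1 peak: its promoter had HIF2α at 10.6 and 9.57 and BMAL1 at 8.59 and 6.69, with summits 240 bp apart.

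NDRG1, CA12 and STC2 kept HIF2α alone at their sites. NDRG1, a hypoxia-induced growth regulator, was the only gene nearest to 3 sites, at 18770, 54781 and 73713 bp upstream, with HIF2α folds of 16.8, 5.07 and 14.0 in shControl and 12.8, 7.44 and 12.4 in shBMAL1 cells. Its BMAL1 folds of 6.23, 5.71 and 8.19 were followed by no peak. CA12, a carbonic anhydrase, had HIF2α at 11.4 and 12.3 in an intron. STC2, a secreted glycoprotein, had it at 12.4 and 17.8 at an intergenic site 127048 bp upstream of its start. TGFA, a ligand of the EGF receptor, had an intronic site with a HIF2α fold of 6.23 and a BMAL1 fold of 6.53, both lost.

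**Figure D4:**
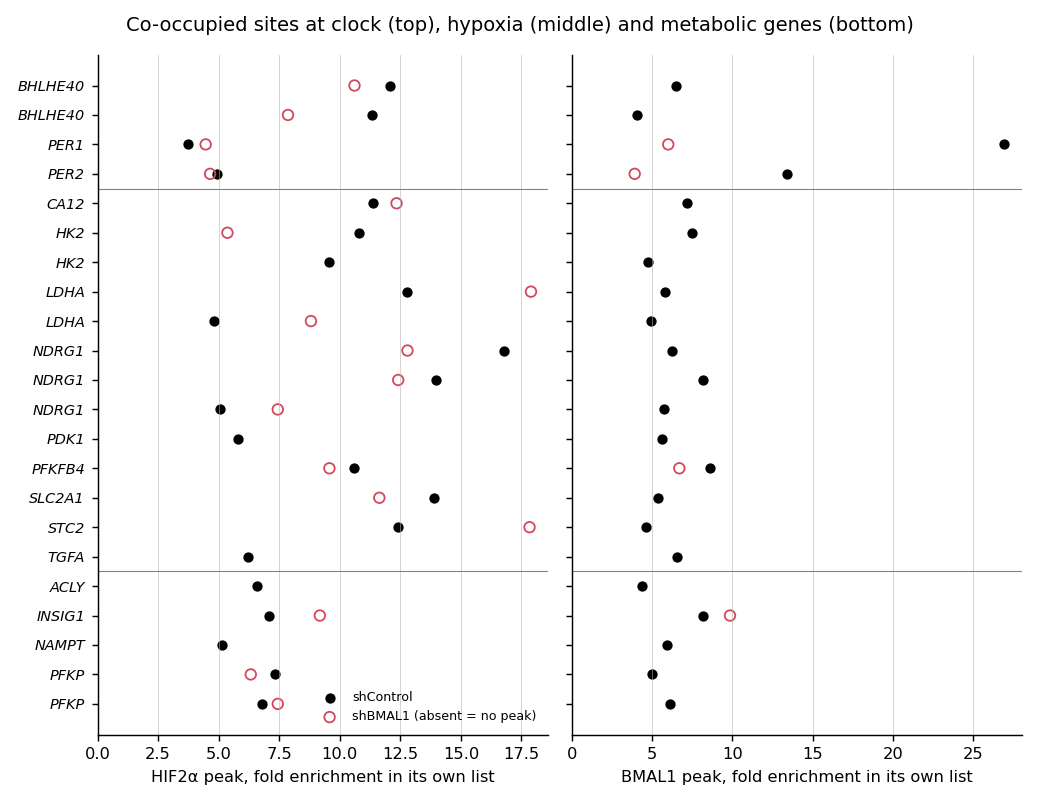
Fold enrichment (x axis) of the HIF2α peak (left) and the BMAL1 peak (right) is plotted for co-occupied sites at named clock, hypoxia and metabolic genes, filled for shControl and open for shBMAL1 cells, with no open point where no peak was called. HIF2α has an open point at 10 of the 13 hypoxia sites shown and BMAL1 at 1, PFKFB4.

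Of the 34 listed genes of lipid and glucose metabolism, 6 had a co-occupied site, against 1.58% of all 20149 protein-coding genes. Their 7 sites kept 3 HIF2α peaks and 1 BMAL1 peak, where all 276 sites without a match kept 53.3% and 15.6%. This list was also chosen with earlier results of these data known, so that its count is no independent support. Both peaks were lost in ACLY (HIF2α 6.57, BMAL1 4.35), which makes cytosolic acetyl-CoA, and at the promoter of NAMPT (5.13 and 5.96), the enzyme of NAD salvage. INSIG1, a sterol-regulated brake on cholesterol synthesis, kept both 92028 bp upstream of its start, with HIF2α at 7.09 and 9.18 and BMAL1 at 8.20 and 9.85. PFKP, a platelet-type phosphofructokinase, kept HIF2α alone at both its sites (6.77 and 7.31 in shControl cells, 7.44 and 6.32 in shBMAL1 cells). The first of these lay 84857 bp upstream of its start and the other in an intron.

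The remaining lists held few sites, and most kept HIF2α alone, against 43.8% of all sites without a match. Over all 20149 protein-coding genes 1.58% had a site. These lists too were chosen with earlier results of these data known, and their counts are no independent support. The stress response list had 3 of 29 genes: IER3, an immediate early gene (HIF2α 13.6 in shControl and 11.2 in shBMAL1 cells), TRIB3, a pseudokinase (14.6 and 22.9), and KLF10, where both peaks were lost. Among the MYC network and other bHLH genes 2 of 29 had a site, MXD4, a MAX partner, with HIF2α at 4.27 and 4.64, and MYC, with 8.79 and 7.53 at a distal site. FOSL2 was the only one of 15 AP-1 genes, with HIF2α at 12.5 and 16.8. CCN1, NT5E and MYOF were the 3 of 24 on the YAP and TEAD target list, and of these MYOF lost both peaks. PAX8, the renal lineage factor, was the only one of 26 kidney and tumour genes, with HIF2α at 5.42 and 4.54. None of the BMAL1 peaks at these 10 sites was called in shBMAL1 cells, where 15.6% of all sites without a match kept one.

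The sites lay near 289 protein-coding genes, of which 21 were nearest to a pair of sites. Distances from the HIF2α peak to the nearest protein-coding start were up to 1000 bp at 85 sites, 1000 to 10000 bp at 58, 10000 to 100000 bp at 121 and more at 48. One of the pairs, at GTF2IRD2B, belongs to a family with near-identical copies, where reads may align to more than 1 place. Chromosome 7 held 36 sites (11.5%) and 47 of the HIF2α-only peaks (5.42%), and chromosome 19 held 19 sites (6.09%) and 23 of those (2.65%). The copy number of these chromosomes was not measured here.

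Promoters, taken to reach from 1000 bp before to 100 bp after the start of an annotated transcript, held 105 of the 312 sites (33.7%, 28.6% to 39.1%). Introns of protein-coding genes held 112, coding exons 4, untranslated exons 4, and 87 lay outside protein-coding genes. The share lay between that of HIF2α-only peaks (24.8%, 22.04% to 27.8%) and of BMAL1-only peaks (70.8%, 68.4% to 73.1%), and neither interval overlapped that of the sites. Of the 105 sites, 76 were at a protein-coding promoter and 29 at that of another transcript only, and 10 of those 29 were mitochondrial matches.

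BMAL1 peaks were retained at a larger share of promoter sites than of distal sites. Among sites without a match, the BMAL1 peak was retained at 27 of 94 promoter sites (28.7%, 20.6% to 38.6%) and at 16 of 182 others (8.79%, 5.49% to 13.8%). The HIF2α peak was retained at 42 of the promoter sites (44.7%, 35.0% to 54.7%) and 105 of the others (57.7%, 50.4% to 64.6%), whose intervals overlap. The same order was seen away from the sites, at 47.9% and 28.8% for BMAL1-only peaks and 52.4% and 58.2% for HIF2α-only peaks. Within promoters and outside them, the BMAL1 share of the co-occupied sites was below that of BMAL1-only peaks. Peak strength moved with place as well, with a median BMAL1 rank of 954 at promoter sites and 1327 at others, and its part in the difference was not tested.

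The summits of both proteins lay close together at most sites. The median distance was 43 bp, with 173 sites within 50 bp, 234 within 100 bp and 10 over 500 bp apart. Shared length was at least 100 bp at 296 sites and under 50 bp at 4. The least overlap was 13 bp at ADAP1, 19 bp at PDK1 and 23 bp at EPHB1. Just outside the rule, HIF2α peaks at DAG1 and PPP2R1A lay 78 bp from a BMAL1 peak and one at SLC50A1 342 bp, and 15 HIF2α-only peaks were within 1000 bp of one.

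Elements of both proteins were found at the sites, each in a larger share of windows than in the flanks. Motifs were searched on either strand of the 200 bp around the HIF2α summit, at the 276 sites without a match. An E-box was present at 34 (12.3%, 8.95% to 16.7%), against 4.53% of windows 2000 bp away and 5.86% of windows at protein-coding starts. HIF2α-only summits had an E-box in 5.64% and BMAL1-only summits in 12.8%. An HRE core was present at 197 sites (71.4%, 65.8% to 76.4%), against 29.2% of flanking windows and 42.7% of starts, 75.2% of HIF2α-only and 58.8% of BMAL1-only summits. The HRE core count includes every E-box, since CACGTG contains ACGTG. The HRE core is also shorter and has more forms, so that its share cannot be set against that of the E-box. The longer HRE form TACGTG was less frequent at the sites than at HIF2α-only summits, at 26 of 276 (9.42%, 6.51% to 13.4%) against 32.0% (28.9% to 35.2%), and stood in 1.36% of BMAL1-only windows.

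HRE cores lay nearer to the HIF2α summit than to the BMAL1 summit at most sites. Where an HRE core and no E-box was present (163 sites), its nearest copy lay a median of 37 bp from the HIF2α summit and 78 bp from the BMAL1 summit, and it was nearer to the HIF2α summit at 116 sites. At the 34 sites with an E-box the medians were 51 and 53.5 bp, with 18 nearer to HIF2α and 15 nearer to BMAL1. Because windows were centred on the HIF2α summit, these distances favour it. An E-box was in 14.4% of the 312 windows centred on the BMAL1 summit and 10.9% centred on the HIF2α summit.

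Motifs of other factors followed the place of the site. An AP-1 site (TGACTCA or TGAGTCA), bound by FOS and JUN proteins, was present at 76 of 276 sites (27.5%, 22.6% to 33.1%), against 5.07% of flanks and 2.62% of starts, and beside 29.96% of HIF2α-only and 9.91% of BMAL1-only summits. It was in 35.2% of distal sites and 12.8% of promoter sites, and in 32.5% and 22.1% of distal and promoter HIF2α-only summits. The GC box (GGGCGG), bound by SP factors, was in 62.8% of promoter sites and 13.2% of distal ones, against 46.6% of starts. BMAL1-only summits had it in 85.5% of promoter and 32.1% of distal windows, and HIF2α-only summits in 42.8% and 7.47%. Sites that kept a BMAL1 peak had the GC box in 55.8% (41.1% to 69.6%), an AP-1 site in 11.6% (5.07% to 24.5%) and an E-box in 6.98% (2.40% to 18.6%). Sites that lost it had them in 25.3% (20.2% to 31.3%), 30.5% (24.9% to 36.7%) and 13.3% (9.53% to 18.3%). Place moved with the BMAL1 fate, which was retained at 27 of 94 promoter and 16 of 182 distal sites. The part of place in these motif shares was not tested. Retained and lost HIF2α peaks had ACGTG in 57.1% (49.1% to 64.9%) and 34.1% (26.5% to 42.6%) of windows. For GCGTG the shares were 45.6% and 45.7%. For the whole HRE core they were 77.6% (70.2% to 83.5%) and 64.3% (55.8% to 72.1%), whose intervals overlap. Retention also moved with peak strength, whose part here was not tested. A motif is a match of letters and does not show which protein was bound.

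**Figure D5:**
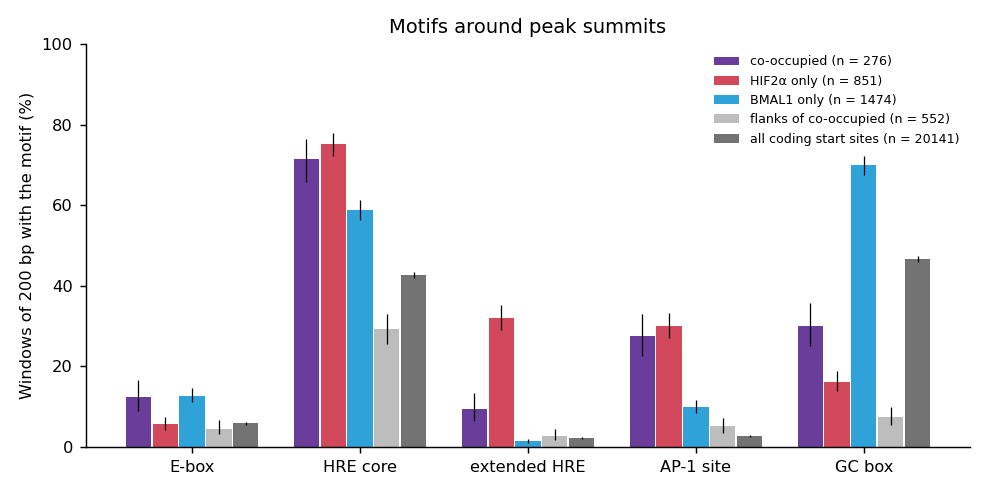
The share of 200 bp windows with each motif (%, y axis) is plotted for the 276 co-occupied sites without a mitochondrial match, other HIF2α and BMAL1 peaks, the flanks of the sites and all protein-coding starts, with 95% Wilson intervals over windows. The extended HRE stands in 9.42% of windows at the sites and 32.0% at HIF2α-only summits.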

How the data were processed

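Peak lists of 11 CUT&RUN libraries were analysed, as 1 pooled list for each of 4 groups, and the 4 IgG libraries were not used here. Per the labels and methods, the authors aligned reads to hg19 with Bowtie2 2.5.3, removed duplicates, called peaks with MACS2 2.2.9.1 and took out blacklisted regions with bedtools 2.31.1. A use of IgG as control of the peak calls is not given in the sources used here. The deposited fold enrichment is a ratio over local background, the deposited −log10 p is that of MACS2, whose q was not used, and the deposited score is an integer of display that was not used. The lists hold no counts, so the depth behind each peak is unknown. The reporting summary states a depth per sample and that a BMAL1 library of shBMAL1 cells with few reads was discarded. The labels call the libraries biological replicates and the study's reporting summary calls them technical, and the lists carry no error between them.

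Overlaps were found with numpy 2.4.6 and pandas 2.3.3, and peaks were placed by their midpoint on GENCODE release 44 lifted to GRCh37, whose coordinates are those of hg19. Mitochondrial matches were blastn 2.17.0 alignments of a peak to the GRCh37 mitochondrial sequence (16569 bases) with an E value of at most 1e-10. Strength ranks used −log10 p. Steps were tested on simulated data. Named sites were those at genes of 8 lists, the 10 of best joint strength, the 5 best of each of 4 fates, and genes nearest to at least 3 sites. The members, lists and comparisons were chosen with earlier results of these data known. Alternatives to overlap, strength limit, promoter, nearest gene and motif window were computed. Sites of a few listed genes count in the totals and are not reported here by name.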

Additional observations from a re-analysis of the deposited data

How the results depend on the processing

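The number of sites and 7 other results were recomputed under alternative settings. This gave 47 values, of which 27 lay within the interval of the main value (for counts, within 1.5 times). Of the rest, the number of sites fell to 75 with peaks of −log10 p of at least 20 and to 61 with lists of equal length, and to 48 and 37 when sites that match the mitochondrial genome were also left out. The HIF2α share retained was 72.1% with equal lists, 51.9% when summits had to lie within 100 bp, and 43.8% under the p limit without matches. The BMAL1 share was 41.3% and 59.0% under the p limit and with equal lists, 15.6% without matches, and 14.6% and 35.1% with both choices. Shares over all peaks were not computed under these strength limits, and the cause was not tested. Promoters held 46.5% of sites at 2500 bp to each side and 24.4% with protein-coding starts only, a wider and a narrower definition. E-boxes were found in 4.81% of windows of 100 bp and 17.6% of 400 bp, and HRE cores in 41.7% and 81.4%, as the window length sets how many letters are read. HRE cores stood in 58.7% of windows at the BMAL1 summit and in 71.4% without matches. The alternatives without matches were chosen after the data were seen.

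No paired analysis was possible because each list pools its libraries, and no library was left out in turn for the same reason. The lists have 3 libraries each, or 2 for BMAL1 in shBMAL1 cells, and a peak below threshold is not told apart from an empty locus.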

Other observations

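In shBMAL1 cells 98 HIF2α peaks overlapped a BMAL1 peak. Of these, 58 overlapped a co-occupied site of shControl cells and 40 did not. Mitochondrial matches made up 40 of the 98, 34 at co-occupied sites of shControl cells and 6 elsewhere.

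Motifs of promoter factors were also counted at the 276 sites without a match. The CCAAT box was in 41.5% of promoter sites (32.1% to 51.6%) and 18.7% of distal ones (13.7% to 24.97%), against 25.8% of protein-coding starts and 22.5% of flanking windows. The ETS site CCGGAAG was in 7 of 276 (2.54%), against 10.1% of starts and 6.99% of BMAL1-only windows.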
